A study of Mus musculus with 2 samples.

Results

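Dense multi-peak genes are genes of modest length that carry many separate peaks of N6-methyladenosine (m6A), and 80 such genes with 736 peaks were found in mouse uterus. They were chosen by the peak list itself: autosomal protein-coding genes with a span of 3000 to 50000 bases were kept if 8 or more peak summits lay inside them and inside no other annotated gene. The gene span runs from the first to the last base of any annotated transcript, introns included. The 80 genes are 0.622% of the 12861 genes of that length, of which 6911 held at least 1 such summit. Their 736 peaks are 1.92% of the 38366 peaks in the list and 4.70% of the single-gene peaks in genes of that length. Because the number of peaks selected the genes, every value from the same peak list is given here as a description, with no test.

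The measurement was methylated RNA immunoprecipitation sequencing (MeRIP-seq) of wild-type C57BL/6 mice. The immunoprecipitated (IP) group was 1 library from RNA of whole uterus of gestation days 4 and 8, pooled in equal parts and captured with an anti-m6A antibody. The input group was 1 library of whole uterus without antibody, whose label names no day and no pooling. Whether both came from the same RNA is not given in the sources used here, and the peak names carry only the tag of day 8. With 1 library a group there are no replicates, and days 4 and 8 cannot be told apart.

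N6-methyladenosine is placed on nascent RNA by a nuclear complex around Mettl3 and Mettl14, mostly at a central adenosine in short motifs such as GGACT. In mammalian mRNA it is known to be rich in long internal exons and near stop codons, and reader proteins of the YTH family bind it and affect the decay, splicing and translation of the transcript. Antibodies against m6A also bind a related mark, N6,2′-O-dimethyladenosine, which stands next to the cap at the start of many transcripts. Antibody capture works on RNA fragments, so a peak marks a neighbourhood and not a single base.

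Each peak carries a fold enrichment, the authors' ratio of IP fragments to local background at the summit, with 1 fragment added to both. The local background is an estimate from the input in scaled fragments. In the 736 peaks the fold ranged from 1.76 to 34.7, with a median of 6.40 and quartiles of 4.77 and 9.06. Over all peaks in the list the median was 6.16, with quartiles of 4.62 and 8.32. The summits of the 736 peaks were covered by a median of 43 IP fragments (quartiles 28 and 64), against 29 over all peaks. Their median background was 5.56, against 3.33 over all peaks and 4.32 over the 14908 single-gene peaks of the other genes of that length. Input coverage was thus higher under these peaks, and its part in the number of peaks was not tested. The bracketed range after a fold is its 95% interval, from the exact Poisson limits of the IP fragment number at an unchanged background, and covers counting error only.

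The start of the transcript was one recurrent place for a peak, and the promoter windows printed here are shown because they are the only stretches of these genes for which a sequence was at hand. RefSeq windows of build GRCm38.p6, from 250 bases before an annotated start to 50 bases after it, matched 68 of the 80 genes. In 24 of these 68 genes (35.3%) a peak covered an annotated start. Among the other genes of that length with a single-gene summit and a window the share was 13.0% (718 of 5503). Genes with more peaks have more chances of a peak at the start, so nothing is read from that difference. In the lines below, each window is written from 5′ to 3′ on the transcript strand, and its last 50 bases begin at the annotated start. The Pdgfra, Kmt2d and Brpf1 windows lie wholly inside their gene spans, so other annotated transcripts may cover their earlier bases. Capitals mark GGACT or its complement on the other strand, AGTCC. The first 4 are the named genes with the highest fold at a start: Ddx54 (chr5:120612880-120613179, plus strand), Pdgfra (chr5:75152001-75152300, plus strand), Kmt2d (chr15:98871156-98871455, minus strand) and Brpf1 (chr6:113306887-113307186, plus strand).
Ddx54: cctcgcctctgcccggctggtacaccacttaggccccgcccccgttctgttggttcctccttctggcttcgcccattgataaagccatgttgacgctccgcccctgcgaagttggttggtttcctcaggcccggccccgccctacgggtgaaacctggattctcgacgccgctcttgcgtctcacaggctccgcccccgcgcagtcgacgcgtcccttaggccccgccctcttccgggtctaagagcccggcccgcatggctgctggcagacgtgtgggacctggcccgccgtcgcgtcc
Pdgfra: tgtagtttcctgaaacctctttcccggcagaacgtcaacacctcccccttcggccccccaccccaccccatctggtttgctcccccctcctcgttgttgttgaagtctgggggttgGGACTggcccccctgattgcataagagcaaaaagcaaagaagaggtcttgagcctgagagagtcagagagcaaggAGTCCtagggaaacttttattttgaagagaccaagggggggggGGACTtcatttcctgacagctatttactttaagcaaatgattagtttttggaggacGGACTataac
Kmt2d: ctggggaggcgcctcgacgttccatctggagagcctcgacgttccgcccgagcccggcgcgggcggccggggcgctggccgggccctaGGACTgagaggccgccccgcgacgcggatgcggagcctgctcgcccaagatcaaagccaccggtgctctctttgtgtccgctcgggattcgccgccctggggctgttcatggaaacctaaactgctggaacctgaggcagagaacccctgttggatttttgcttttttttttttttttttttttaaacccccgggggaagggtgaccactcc
Brpf1: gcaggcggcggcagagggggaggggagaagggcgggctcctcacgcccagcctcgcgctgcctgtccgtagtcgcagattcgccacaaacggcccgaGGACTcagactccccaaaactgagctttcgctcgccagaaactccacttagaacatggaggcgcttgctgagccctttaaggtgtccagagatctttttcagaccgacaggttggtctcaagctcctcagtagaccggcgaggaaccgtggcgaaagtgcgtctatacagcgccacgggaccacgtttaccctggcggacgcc

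The peak over the Ddx54 start reached 16.1-fold (10.6 to 23.4), with 25 IP fragments where the background was 0.618, and its summit lay 30 bases before the annotated start. Its window holds neither GGACT nor AGTCC. Ddx54 encodes a nucleolar RNA helicase. The Pdgfra peak at 75152181 to 75152559 reached 13.4-fold (9.95 to 17.6) from 49 fragments, with the summit 148 bases after the start, and its window holds GGACT 3 times and AGTCC once. The Kmt2d peak reached 12.3-fold (8.60 to 17.0), with the summit 140 bases before this start and inside the gene span, which begins further upstream. The Brpf1 peak reached 10.6-fold (6.86 to 15.6), with the summit 108 bases after the start. Kmt2d and Brpf1 windows hold GGACT once each. The Brpf1 GGACT and the first of the 3 Pdgfra GGACT lie before the first base of the peak interval, so they are outside the peak. Over all 32851 windows of the table, 45.5% hold GGACT on either strand, and 42 of the 80 windows of these genes do (52.5%). A match describes the letters and does not locate a methylated base.

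Summits at starts sat a short way into the transcript. Taking the highest peak over a start in each of the 24 genes, the summit lay a median of 112 bases after the start, with quartiles of 87.5 and 145, and 18 of the 24 lay 50 to 200 bases after it. In the other genes of that length the median was 117 bases. The fold at these 24 starts had a median of 10.4 and ranged from 4.72 in Col6a1 to 18.0 in Ehbp1l1, and the median background was 1.85. The first transcribed base was A in 7 of the 24 windows (29.2%). Among the other genes with a peak over a start it was A in 208 of 718 (29.0%), and among all windows in the table in 34.4%. For Ehbp1l1 the start 146 bases before the summit was taken, which begins with T. Its peak also covers a start 108 bases before the summit, which begins with A. The shares were not tested. In 10 of the 24 genes the peak at the start was also the highest peak of the gene. Ehbp1l1, which encodes a partner of Rab GTPases in membrane traffic, Mia3, which encodes a cargo receptor for collagen export, and Zfc3h1, which encodes a nuclear RNA decay factor, led at 18.0-fold (14.0 to 22.8), 17.3-fold (11.9 to 24.5) and 16.3-fold (13.3 to 19.8). These 3 were named after their values were seen.

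**Figure D1:**
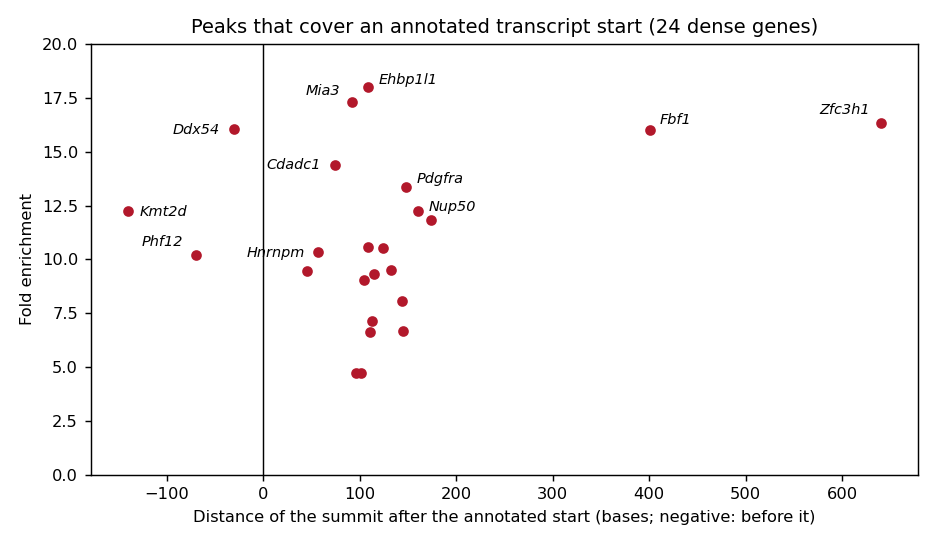
Fold enrichment (vertical axis) against the distance of the summit after the annotated transcript start in bases (horizontal axis, negative before it). Each of the 24 points is the highest peak over a start in 1 dense gene. Most lie 50 to 200 bases after the start, while Zfc3h1 and Fbf1 lie at 640 and 401 bases. Ddx54, Phf12 and Kmt2d lie before the start. Ehbp1l1 is drawn at 108 bases, from the nearer of its covered starts, where the median in the text used 146.

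Safb2 and Safb form a divergent pair with a peak on each side of the gap between them. They encode scaffold attachment factors, which bind RNA and matrix-attached DNA. The pair was singled out after its values were seen. Their annotated starts on chromosome 17 are 397 bases apart, their spans are separated by 306 bases, and their 2 windows share 104 bases (chr17:56584536-56584835, minus strand, for Safb2, and chr17:56584732-56585031, plus strand, for Safb). They are printed because both genes are dense and begin at the same place.
Safb2: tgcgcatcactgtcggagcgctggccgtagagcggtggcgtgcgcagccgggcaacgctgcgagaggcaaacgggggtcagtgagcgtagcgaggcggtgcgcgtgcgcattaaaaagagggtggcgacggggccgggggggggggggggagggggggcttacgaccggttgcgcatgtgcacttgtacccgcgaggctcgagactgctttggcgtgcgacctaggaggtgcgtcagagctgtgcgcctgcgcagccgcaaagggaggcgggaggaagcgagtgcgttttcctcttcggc
Safb: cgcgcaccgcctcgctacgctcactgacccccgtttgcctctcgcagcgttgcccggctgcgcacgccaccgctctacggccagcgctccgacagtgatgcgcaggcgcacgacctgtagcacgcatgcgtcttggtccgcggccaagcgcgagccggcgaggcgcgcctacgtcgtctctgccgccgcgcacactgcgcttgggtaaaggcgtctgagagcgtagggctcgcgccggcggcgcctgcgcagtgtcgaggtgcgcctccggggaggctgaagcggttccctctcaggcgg

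Neither window of the pair holds GGACT or AGTCC. The first Safb2 peak, at 56584284 to 56584539, reached 12.5-fold (9.57 to 16.1) with its summit 244 bases after the start. The first Safb peak, at 56584856 to 56585322, reached 11.8-fold (9.12 to 15.1) with its summit 174 bases after the start. The bracketed ranges of these folds overlapped. The list has no strand, but the summits lie 815 bases apart and each lies inside 1 gene only.

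The dense genes were found on all autosomes, 9 of them on chromosome 7 and 8 each on chromosomes 5 and 17. Their spans ran from 10.4 kb in Aebp1 to 49.6 kb in Golga3, with a median of 30.04 kb against 16.8 kb for other peak-carrying genes of the allowed length. No gene of 3 to 10 kb was among them (0 of 4296), while 18 of 3734 genes of 10 to 20 kb (0.482%) and 19 of 1014 genes of 40 to 50 kb (1.87%) were. Longer genes thus reached 8 summits more often. Summits per 10 kb ran from 1.64 in Ptpn1 to 7.70 in Aebp1, with a median of 2.93. Of the 80 genes 41 held exactly 8 summits, 16 held 9, and 23 held 10 or more.

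**Figure D2:**
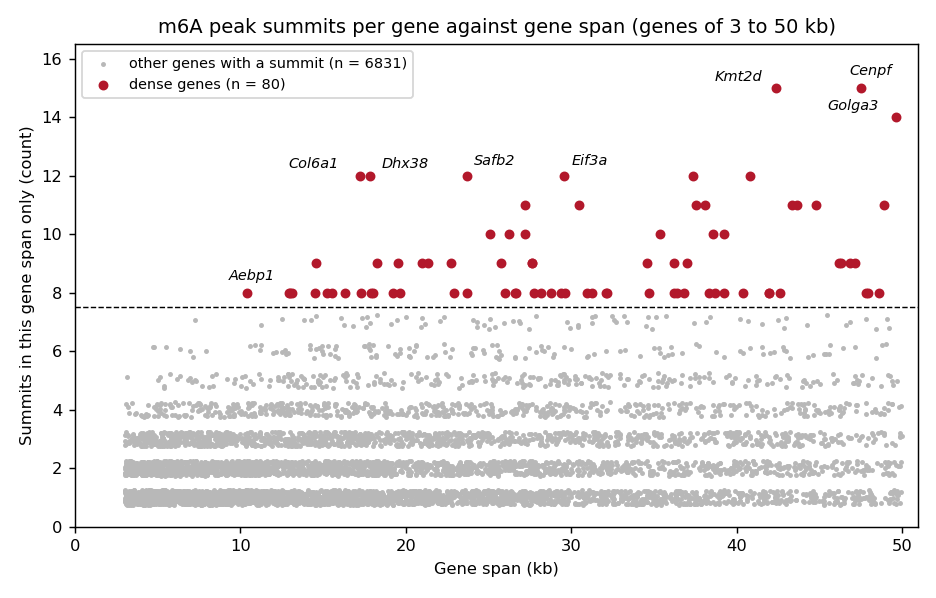
Number of summits lying in a gene's span and no other (vertical axis) against gene span in kb (horizontal axis), for the 6831 other genes with a summit (grey, jittered) and the 80 dense genes (red). The dashed line is the choice of at least 8; Cenpf and Kmt2d stand highest with 15, and Aebp1 is the shortest dense gene.

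The genes on both sides of the threshold had the same median background, while folds were higher in those with 8 summits. The 69 genes with 7 summits had a median fold of 5.94 and a median background of 5.56, and the 41 genes with 8 had 6.42 and 5.56. Of their peaks, 12.8% and 21.0% reached 10-fold. These differences were not tested. Those with 7 summits and the highest folds were Sart3, Ttf1 and Zfp282, at 33.1, 26.1 and 23.3. Those with 8 were Nexn, 2810004N23Rik and Brpf1, at 19.6, 18.7 and 18.2. Sltm, with 13 summits in a span of 50061 bases, was the first gene past the upper length. With no limit on span, 480 autosomal protein-coding genes held 8 or more single-gene summits, and 400 of them spanned over 50000 bases. Inside the 80 spans another 18 summits, in 12 genes, were set aside because they also lay in another gene; Cep250 had the most, with 13 summits in all and 8 of its own.

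Genes of RNA processing and translation were the most numerous of the roles that could be named, with 19 genes and 178 peaks. These role groups were made from textbook knowledge after the genes were seen, so their sizes are a description and no enrichment was tested. The peaks of this group had a median fold of 6.83, and 43 of 178 reached 10-fold. Over the 736 peaks 149 did (20.2%), against 14.8% of all peaks in the list. The 10-fold mark comes from the same peaks that chose the genes, so nothing is read from that share.

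The highest peak of all dense genes lay in Ddx46, which encodes a helicase of early spliceosome assembly (mm10 chromosome 13, 55634975 to 55681267). Here and in the genes that follow, distances from the start inside a gene count from the 5′ end of its span, which can lie outside an annotated start. Its 9 folds, from the 5′ end, were 12.3, 10.7, 5.30, 34.7, 18.0, 9.02, 4.77, 5.66 and 3.42. The 34.7-fold peak (29.3 to 40.9) spanned 55647451 to 55647772, 12.6 kb from the start of the gene, with 141 IP fragments over a background of 3.09. The first 7 summits fell within 18 kb of that start and the last 2 lay 36.5 and 43.8 kb from it. The first summit, at 12.3-fold, lay 3038 bases from that start, and the 34.7-fold and 18.0-fold summits lay further inside the gene. Peaks covered little of this gene, with a summed width of 5.38% of its span.

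Dhx38 and Cdk11b carried high peaks side by side. Dhx38, a helicase of the second splicing step (chromosome 8, 109547999 to 109565861), held 12 peaks in 17.9 kb, from 3.41-fold to 18.0-fold with a median of 7.75. Cdk11b, a kinase acting in transcription and splicing (chromosome 4, 155624841 to 155649935), held 10 peaks from 2.83-fold to 20.9-fold, with a median of 10.7. In Cdk11b 5 consecutive peaks, 5.30 to 15.9 kb from the start, ran at 20.9, 19.7, 14.1, 18.5 and 13.2-fold, and the peaks on either side ran from 2.83-fold to 8.25-fold. The low end of this gene, 2.83-fold, stood over its highest background of 16.7.

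Inside the divergent pair each gene had 3 peaks of 10-fold or more. Safb2 held 12 peaks from 2.59-fold to 12.5-fold with a median of 5.48, and the high ones lay 0.334, 8.69 and 17.6 kb from the 5′ end of the span. Safb held 9 peaks from 3.60-fold to 12.5-fold with a median of 6.41, and the high ones lay 0.174, 13.7 and 18.6 kb from the start. As paralogs they share related sequence, and how reads matching more than 1 place were handled is not given in the sources used here.

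Eif3a differed from these in depth. It encodes the largest subunit of the translation initiation factor eIF3 (chromosome 19, 60761116 to 60790693). Its first peak, 122 bases from the start, had 11 IP fragments at 4.69-fold. The other 11 lay 17.8 to 28.4 kb from the start in a span of 29.6 kb, with 60 to 215 fragments and 3.67-fold to 9.15-fold. The gene thus carried peaks at its start and along its 3′ part with none over the 17.7 kb between, at a median background of 17.6. Abcf1, another gene of translation initiation, held 8 peaks in 12.9 kb, from 2.40-fold to 15.1-fold with a median of 6.86. Zc3h18, which links the cap-binding complex to RNA decay, held 12 peaks from 3.96-fold to 17.6-fold. Ddx54 and Bms1, factors of ribosome assembly in the nucleolus, had medians of 9.76-fold and 9.62-fold over 8 peaks each, and 4 of the 8 in each reached 10-fold.

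Chromatin and transcription genes formed the next group, with 17 genes, 153 peaks and a median fold of 5.71 over a median background of 6.42. Kmt2d, which encodes a histone H3 lysine methyltransferase of enhancers (chromosome 15, 98831669 to 98874077), shared the highest count, 15. Its folds from the 5′ end were 12.3, 4.74, 3.96, 4.65, 3.67, 3.03, 3.74, 8.69, 12.5, 2.199, 7.79, 3.22, 3.44, 5.72 and 3.85, with a median of 3.96. A peak at the start and a middle stretch stood above the rest. The 12.5-fold peak (10.6 to 14.7) was 4385 bases wide and had 151 IP fragments, and the 8.69-fold peak was 2332 bases wide. Together the 15 intervals summed to 35.4% of the span.

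Chd4, the helicase of the NuRD complex (chromosome 6, 125095980 to 125130591), had its 2 high peaks in its 5′ part. Folds of 11.9 and 12.9 lay 1.12 and 4.81 kb from the start, and the other 7 ran from 2.45 to 5.99, with a gene median of 3.84. Background at the first was 1.87, and at the other 8 it ran from 5.68 to 25.3. Chd3, its paralog, held 10 peaks in 26.2 kb from 2.07-fold to 15.3-fold, with a median of 4.64. Chaf1a, the large subunit of the histone chaperone CAF-1 (chromosome 17, 56040416 to 56068026), reached 21.3-fold (16.1 to 27.7) and 18.0-fold at neighbouring summits 18.5 and 17.3 kb from the start, and 3.20-fold to 8.07-fold elsewhere. Hdgfl2, which encodes a chromatin reader, begins 11572 bases past Chaf1a and held 9 peaks with the shortest median spacing of the 80 genes, 683 bases.

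Genes of chromosome segregation, centrosome and cilium (9 genes, 88 peaks) had a median fold of 6.99 over a background of 3.09, the lowest background of the named roles. Cenpf, which encodes a kinetochore protein of dividing cells (chromosome 1, 189640606 to 189688107), held 15 peaks from 3.87-fold to 17.4-fold with a median of 7.79, and 5 of them reached 10-fold. These 5 lay in a 5′ set (12.1 and 11.5-fold, 2.98 and 5.57 kb from the start) and a 3′ set (10.8, 17.4 and 15.5-fold, 35.1 to 39.3 kb from it). Incenp, the scaffold of the chromosomal passenger complex (chromosome 19, 9872295 to 9899489), held 10 peaks, of which neighbouring ones reached 30.8-fold (25.7 to 36.7) and 26.6-fold. The other 8 Incenp peaks ran from 3.77-fold to 10.7-fold, so 2 of 10 summits stood well above the rest.

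Mki67 had even folds and the widest peak. It encodes the proliferation antigen Ki-67, whose messenger is known for a very long internal exon (chromosome 7, 135689784 to 135716450). Its 8 folds from the 5′ end were 4.91, 8.08, 5.82, 6.42, 5.73, 5.87, 7.69 and 5.78. The widest of all 736 intervals, 6923 bases at 135694276 to 135701198, was the one at 5.87-fold, with 168 IP fragments over a background of 27.8. The folds of the highest and lowest Mki67 peaks had overlapping 95% intervals. No exon positions were used here, so whether this interval follows the long exon was not tested. Clspn, a checkpoint adaptor at replication forks, held 11 peaks from 3.99-fold to 19.3-fold with 5 at 10-fold or more. Rad21, the cohesin subunit that separase cuts, had the lowest median of all dense genes, 3.35-fold over 8 peaks, with a single value of 10.8 and the rest between 2.203 and 5.27.

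**Figure D3:**
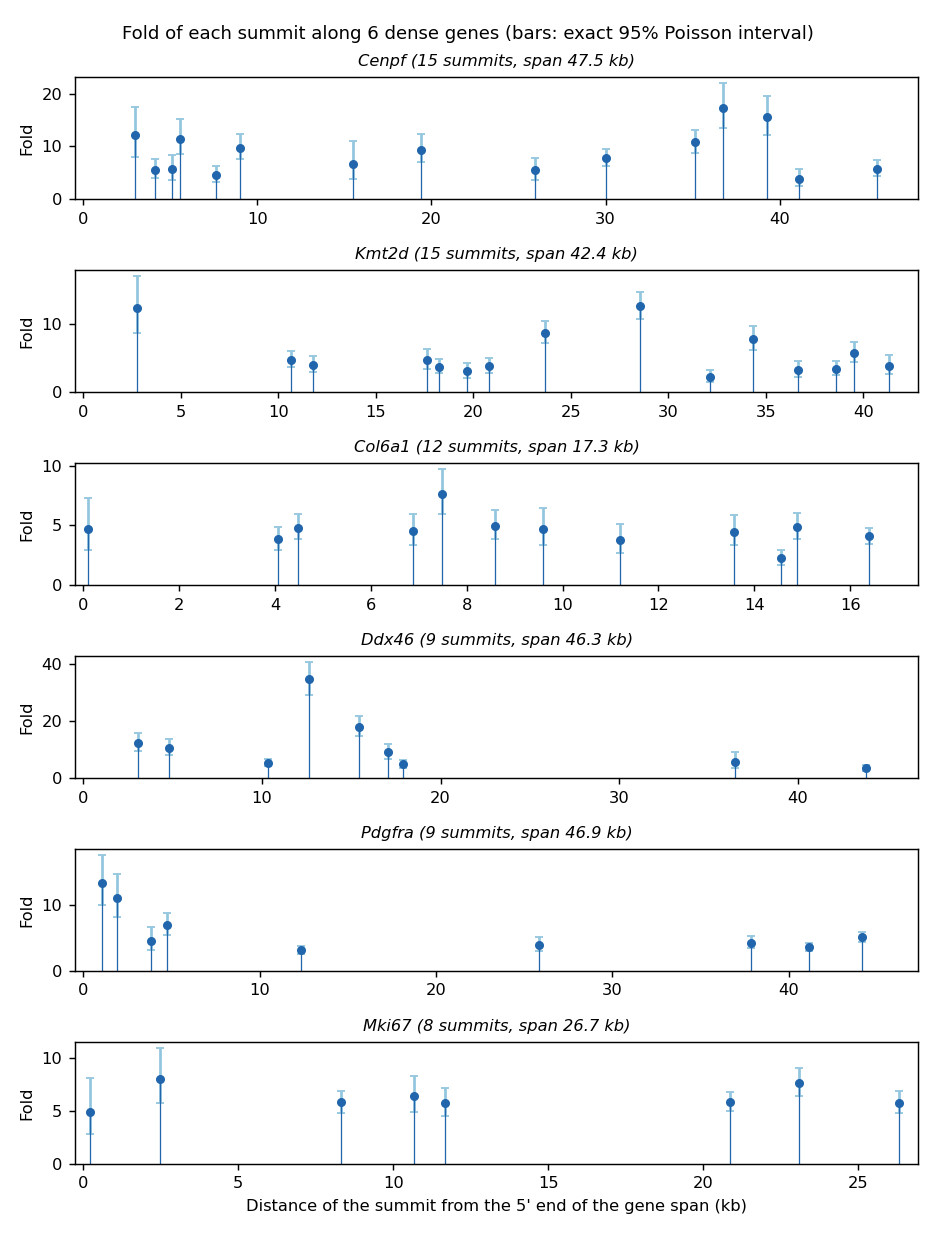
Fold of each summit (vertical axis, with exact 95% Poisson intervals for counting error) against its distance in kb from the 5′ end of the gene span, in 6 dense genes. Ddx46 has 1 summit at 34.7-fold inside the gene, Pdgfra has its 2 highest summits nearest the start, and the Mki67 summits lie between 4.91-fold and 8.08-fold.

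In the same group Tchp had 9 peaks in 14.5 kb over a median background of 1.36. It encodes trichoplein, a keratin-binding protein of centrioles, and its folds ran from 4.04 to 14.4. Rsph3b, a radial spoke gene of cilia, held 11 peaks from 2.76-fold to 11.6-fold over a median background of 1.85. A near-identical copy, Rsph3a, lies on the same chromosome and its span held 7 summits, all of which lay in a further gene span as well. Reads of the copies may not have been told apart, so the Rsph3b count is uncertain.

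Genes of matrix, adhesion, cytoskeleton and nuclear lamina (11 genes, 101 peaks) had the lowest median fold of the roles, 5.59, over the highest median background, 6.79. Col6a1, which encodes the alpha 1 chain of collagen VI (chromosome 10, 76708792 to 76726044), held 12 peaks in 17.3 kb, or 6.96 per 10 kb. Their folds ran only from 2.23 to 7.66, with a median of 4.596, over backgrounds of 3.24 to 34.5. The other 2 collagen VI chains fell outside the choice on different grounds. Col6a2 held 7 summits in 27.9 kb (median 4.01-fold, background 23.5), and Col6a3 held 20 in 77.1 kb, a span above the upper length (median 5.10-fold, background 12.3).

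Aebp1, a secreted protein of the matrix (chromosome 11, 5861866 to 5872248), had the most summits per 10 kb of the 80 genes, with 8 in 10.4 kb. Genes with fewer summits are outside this ranking, and Lrrc45 held 7 in a span of 7241 bases. The Aebp1 folds from the 5′ end were 4.56, 3.88, 4.82, 4.72, 3.97, 4.19, 2.995 and 3.92. This range was the narrowest of the 80 genes, at 1.61 times from lowest to highest. Its summed peak width was 39.99% of the span and its median background, 19.5, was the highest of the 80 genes. Lmna, which encodes lamins A and C, was as low, with 8 peaks from 2.17-fold to 5.79-fold. Nexn, an actin-binding protein of muscle (chromosome 3, 152236982 to 152266350), was the opposite case: 8 peaks from 5.44-fold to 19.6-fold, and the highest median of the 80 genes, 12.0, over a median background of 2.38. The lowest fold of the 736, 1.76, was in Dmkn, an epidermal secreted protein, at 102 IP fragments over the highest background, 57.4. Aebp1 thus had the highest median background and Nexn the highest median fold of the 80 genes, and the fold holds the background in its denominator.

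**Figure D4:**
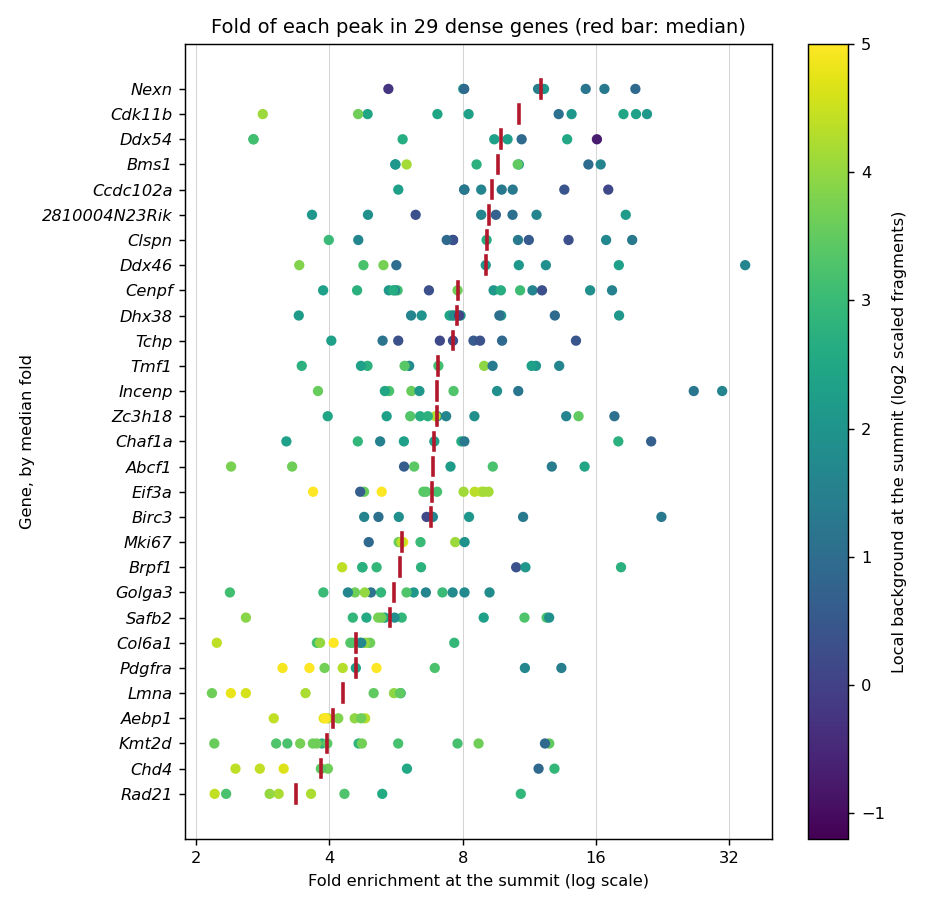
Fold enrichment of each peak (horizontal axis, log scale) in 29 dense genes named by the set rule, ordered by their median (red bar), with colour for the local background in log2 scaled fragments. Medians run from 3.35 in Rad21 to 12.0 in Nexn, and the points over high background (yellow) sit mostly at low folds.

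Golgi and vesicle traffic genes (10 genes, 92 peaks) had a median fold of 6.63. Golga3, which encodes a golgin of the Golgi membrane (chromosome 5, 110176857 to 110226470), held 14 peaks, and none reached 10-fold: they ran from 2.38 to 9.20 with a median of 5.60. Tmf1, another golgin, held 11 from 3.46-fold to 13.2-fold, with a median of 7.05. Golga2, named after its values were seen, held 8 peaks after a bare 5′ stretch of 54.9% of its span, the first 10.8 kb and the last 19.4 kb from the start of a 19.6 kb gene.

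Signalling genes (7 genes, 63 peaks) had a median fold of 6.40. Pdgfra, the receptor for platelet-derived growth factor that marks uterine stroma (chromosome 5, 75151322 to 75198206), held 9 peaks. Its folds from the 5′ end were 13.4, 11.1, 4.59, 6.92, 3.13, 3.90, 4.29, 3.61 and 5.11, at backgrounds of 2.74, 3.16, 5.10, 9.26, 30.3, 12.8, 19.8, 42.0 and 35.2. The peaks nearest the start had the highest folds and the lowest backgrounds, and the last peak had the most IP fragments, 184. Birc3, a ubiquitin ligase of TNF signalling (chromosome 9, 7847468 to 7873205), held 9 peaks, 1 of which reached 22.5-fold (17.8 to 28.0), 2.84 kb from the start. Its other 8 ran from 4.79-fold to 10.95-fold. Wnt5a, a secreted Wnt ligand that acts in uterine development and was named after its values were seen, held 8 peaks from 2.61-fold to 12.4-fold with a median of 4.46.

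The other 7 genes had no shared role. Ccdc102a held 8 peaks from 5.72-fold to 17.0-fold, with a median of 9.30. 2810004N23Rik held 8 from 3.65-fold to 18.7-fold with a median of 9.16, including 9.504-fold (6.23 to 14.0) at its start. Apob, the apolipoprotein of lipoprotein particles (chromosome 12, 7977629 to 8016839), was singled out after its values were seen. All 10 Apob summits lay 28.4 to 39.0 kb from the start of a 39.2 kb gene, at 3.21-fold to 8.06-fold from 14 to 25 IP fragments. It had the most compact set of summits of the 68 genes of known strand: the stretch from first to last summit was 27.0% of the span, where the median gene had 93.3%.

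Folds varied widely within a gene. The ratio of the highest to the lowest fold had a median of 3.78 and ran from 1.61 in Aebp1 to 10.2 in Ddx46. In 76 of the 80 genes the 95% interval of the highest fold lay wholly above that of the lowest, the exceptions being Mki67, Prpf4b, Ccdc186 and Pdcd11. The 2 peaks compared are the extremes of each gene, which are picked to differ. A peak of 10-fold or more was present in 65 genes and absent in 15, among them Golga3, Col6a1, Eif3a, Aebp1, Lmna and Mki67. In 61 of the 80 genes the highest peak stood over a background below the gene's median. Across the 736 peaks Spearman's rho of fold with background was -0.46 (-0.39 over all peaks). These peaks share libraries and genes, and the background is a term of the fold.

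Summits in dense genes were spread along the gene span, introns included, more than in genes with fewer. For the 68 genes of known strand (625 peaks), the last 10% of the span held 17.3% of summits and the first 10% held 11.2%. In the genes with 1 to 7 summits these shares were 29.4% and 13.5%. The number of summits chose the genes, and a gene with 1 summit at its 3′ end cannot be dense, so this difference carries no test. The span ends used here are the outermost of all transcripts, and only 24 of the 68 genes had an annotated start exactly at the 5′ end of the span.

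Folds were higher and backgrounds lower at the 5′ end than at the 3′ end, with no even slope between. In steps of 10% of the span, the median fold was 8.41 in the first, 5.39 in the third, 7.43 in the fifth and 5.63 in the last, and the median background was 2.35, 8.65, 5.68 and 8.03. In the genes with 1 to 7 summits the first and last steps had 7.36 and 5.26, at backgrounds of 1.69 and 6.79. In the first step 28 of 70 dense-gene peaks reached 10-fold (40%), and in the last 13 of 108 (12.0%). In the genes with 1 to 7 summits 422 of 1625 did so in the first step (26.0%) and 336 of 3556 in the last (9.45%). The highest peak of the gene lay in the first step in 19 of the 68 genes, and in any other step in 2 to 9. It was the first summit in 15 genes, the last in 5 and an internal one in 48. The share of the background in this difference was not tested.

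**Figure D5:**
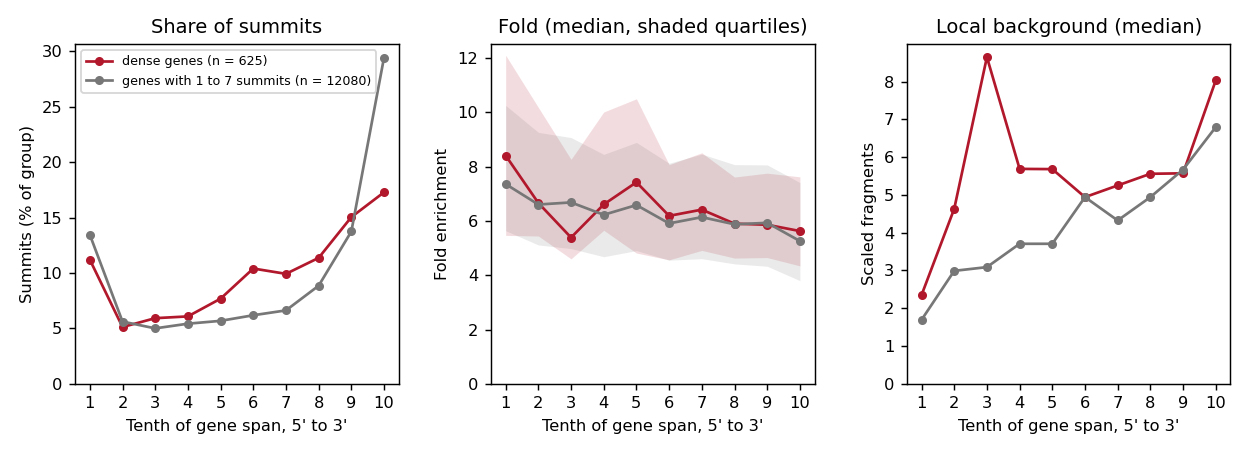
Share of summits in percent, median fold with quartiles (shaded) and median local background in scaled fragments, in steps of 10% of the gene span from 5′ to 3′. Dense genes (red, 625 summits) have 17.3% of summits in the last step where genes with 1 to 7 summits (grey, 12080 summits) have 29.4%, and fold is highest in the first step in both.

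Neighbouring summits of a dense gene lay a median of 1818 bases apart, with quartiles of 955 and 3839. The closest pair was 329 bases apart and the widest gap, 31082 bases, was in Ptpn1, which encodes a tyrosine phosphatase. Of 656 neighbouring pairs 27 (4.12%) were under 500 bases apart and 112 (17.1%) were over 5000. In genes with 2 to 7 summits the median was 2737 bases. The bare stretch between neighbouring intervals was a median of 1341 bases and at least 150. Peak widths were ordinary, with a median of 320 bases against 333 over all peaks, and 9 intervals reached 2000 bases: 2 each in Cenpf and Kmt2d, and 1 each in Mki67, Ahnak2, Mia3, Dchs1 and Ehbp1l1.

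Genes from 11 lists of general functions, uterine function and cell types were looked up among the 80. Of 107 different listed genes of the allowed length, 5 were dense (4.67%), most of them from lists of general functions. They were Col6a1 of the extracellular matrix, Pdgfra of receptors and stromal markers, and Kmt2d, Chd4 and Mki67 of transcription and chromatin. The transcription and chromatin list had 3 dense genes of 15 of the allowed length. The share over all 12861 genes was 0.622%, as above, and the lists were drawn up with results of this series known. None of the 14 contractile and cytoskeletal genes and none of the 22 genes of decidua and implantation was dense, with medians of 4 and 2 summits a gene and maxima of 6 and 7. At least 1 summit was present in 53.7% of all genes of the allowed length. Among markers of cell types, 6 of 7 smooth muscle, 11 of 11 stromal, 8 of 9 epithelial, 4 of 4 endothelial and 5 of 5 immune genes of the allowed length held at least 1 summit, and 4 of 9 trophoblast and embryo genes did. In bulk tissue, fewer cells of a type and less RNA per cell cannot be told apart, and a peak in a marker does not show which cells held it.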

How the data were processed

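RNA of whole uterus was made into 1 IP and 1 input library with a strand-keeping kit, per the labels' protocols. HISAT2 2.2.1 and MACS3 3.0.0a7 on mm10 are named in the submitters' processing notes; no source used here gives settings, duplicate handling or filters. The deposited peak list gives a fold (the caller's ratio at the summit), a −log10 p-value and a −log10 q-value, the lowest being 1.32, and a display score that the authors' caller wrote and that was not used. Positions, deposited counting from 0, are printed counting from 1. IP fragments and background were recovered by reading fold as (k + 1)/(background + 1) and p as a Poisson tail above k; 100% of peaks fitted within 0.001, as did 100% of 1992 simulated peaks tested for the whole number k. The genome-wide background was 0.462.

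Gene spans were those of RefSeq on GRCm38.p6 (mm10), with 365 rows outside assembled chromosomes left out (49632 genes kept). Strand came from the promoter table. Exon positions were not used here, so the planned share in exons was not run. The members, lists and tests were chosen with earlier results of these data known; role groups were made after the genes were seen. Named by rule were the 10 dense genes with the most summits and the 5 dense genes with the most summits per 10 kb. The rule also named the 8 highest folds, the 5 highest and 5 lowest medians, list members, and 3 on each side of the threshold. One gene that the rule names is not reported here. Alternatives changed the q, fold, count, spacing, span and overlap choices, and 1 left out Rsph3b, added after the data were seen. Tools were scipy 1.17.1, numpy 2.4.6 and pandas 2.3.3 in Python 3.11.15, and figures came from matplotlib 3.10.9.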

Additional observations from a re-analysis of the deposited data

How the results depend on the processing

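Both the choice of genes and several medians moved with the cut-offs, from main values of 80 genes, 736 peaks, 6.40-fold, 320 bases of width, a background of 5.56 and a spacing of 1818 bases. Requiring a fold of at least 4 left 50 genes and 451 peaks, with medians of 7.01-fold, 301 bases of width and a background of 4.57; this setting drops low folds by construction. At least 6 summits gave 275 genes and 1975 peaks at a median of 6.06-fold, and at least 10 gave 23 genes and 264 peaks, of which 10.98% lay within 1000 bases of a gene end (14.5% in the main set). A span of 3000 to 25000 bases gave 24 genes and 210 peaks, with a median width of 362.5 bases, 1280 bases between neighbouring summits and 20% near a gene end. With a −log10 q of at least 5, same intervals merged, summits within 500 bases counted once, summits in other spans counted, whole intervals inside the span or Rsph3b left out, the number of genes lay between 64 and 95, the number of peaks between 588 and 880, and the medians and the share near an end stayed inside the exact binomial 95% intervals of the main values. Those intervals treat the 736 peaks as independent, although the peaks share genes and 1 IP library. The sets compared also hold mostly the same genes, so staying inside the intervals is not a test. The planned share of summits in exons was not run. No paired analysis was possible because each group has 1 library, so no replicate could be left out, and depth limits the peaks with few IP fragments, the lowest having 6.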
